A study of Mus musculus with 8 samples.

Results

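The glucocorticoid receptor gene and 5 of its best known target genes were examined in CDPs, the DC-restricted progenitors of BM, from mice fed HFD or CF. The 6 genes were Nr3c1, Fkbp5, Tsc22d3, Sgk1, Ddit4 and Klf9. They were chosen by symbol, and all 6 were found among the 16119 genes of the count table and passed the filter on low counts, which left 15837 genes tested. The HFD group held 4 libraries of CDPs from male C57BL/6 mice (C57BL/6J in the methods) given 60 kcal% fat, whose genotype label reads DIO. The CF group held 4 libraries from male C57BL/6 mice given feed with 10 kcal% fat, with the label DIO-Control. Both groups are wild type. The label for age gives 16 weeks on the diet for HFD and describes CF as matched controls. About 50000 cells (lineage-negative cells with intermediate c-kit and low Sca1 that carry CD115 and Flt3) were sorted for each library. According to the methods, the 4 replicates of a diet were isolated independently and in parallel, but neither they nor the labels say whether a replicate was 1 animal or a pool, so p values measure only the spread between these libraries.

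Glucocorticoids such as corticosterone cross the cell membrane and bind the receptor NR3C1, which waits in the cytoplasm in a complex with HSP90 and its co-chaperones. The bound receptor enters the nucleus, where it attaches to glucocorticoid response elements and raises the transcription of target genes, and it lowers many inflammatory genes by acting on other transcription factors. Glucocorticoids are known to restrain the maturation of DCs and to release neutrophils from BM. Corticosterone was not measured in the files used here, and several of the target genes also answer to other signals.

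Library totals ran from 28203651 to 48409689 counts, and no library was a copy of another. HFD replicate 1 stood apart. The 11 neutrophil markers summed to 20070 CPM in it (counts relative to the library's total, scaled by TMM), against 933.5 to 3549 CPM in the other HFD libraries and 1896 to 6426 CPM in CF. S100a8, a calcium-binding protein abundant in neutrophils, had 5150 CPM there and 245 to 1780 CPM elsewhere, and Ngp, a neutrophil granule protein, had 4380 CPM against 180 to 1300 CPM. CF replicate 1 had the lowest neutrophil sum of its diet. Flt3, the receptor used for the sort, had 88.8 CPM in HFD replicate 1 and 227 to 378 CPM elsewhere, while Kit, Ly6a and Csf1r were detected in all 8 libraries. Results are therefore given with and without HFD replicate 1. Leaving it out did not level the neutrophil sums, since the CF libraries other than replicate 1 were then above every HFD library. In bulk RNA, fewer cells of a type and less RNA per cell cannot be told apart.

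None of the 6 genes passed the test between the diets with all 8 libraries (edgeR quasi-likelihood test, Benjamini-Hochberg adjusted p over all genes tested, threshold 0.05). In the background, 0.423% of all genes passed, a count of 67 that ran from 0 to 200 when each library was left out in turn. All 67 were lower in HFD, and 0 genes passed when protein-coding genes alone were tested. At an unadjusted p under 0.05, Fkbp5 alone of the 6 was higher in HFD, where 3.22% of all genes were, and none of the 6 was lower, where 5.34% of all genes were. With DESeq2, where 569 of 15916 genes passed, and with limma voom, where 70 of 15837 passed, 0 of the 6 passed as well. When HFD replicate 1 was left out, Sgk1 passed the test as lower in HFD, Tsc22d3 and Klf9 were lower without passing it, and the log2 fold changes of Nr3c1, Fkbp5 and Ddit4 moved by less than their SE.

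**Figure D1:**
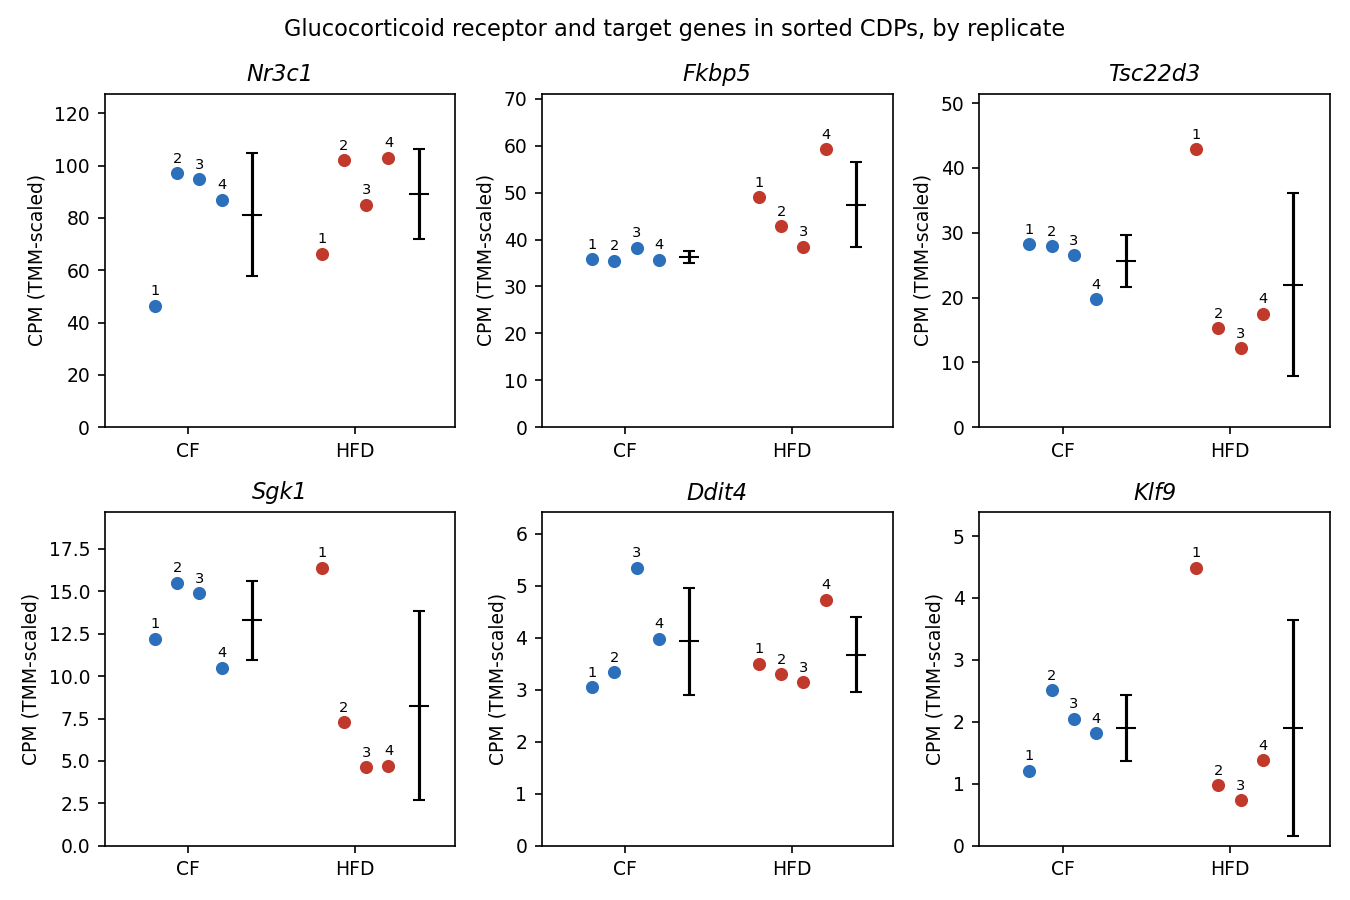
Level of each gene in each library, in CPM scaled by TMM (vertical axes start at 0), with CF in blue and HFD in red, replicate numbers above the points, and the mean and SD of 4 libraries as a black bar. HFD replicate 1 is the highest library for Tsc22d3, Sgk1 and Klf9, and the other 3 HFD libraries lie below every CF library for Tsc22d3 and Sgk1.

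Nr3c1 encodes the receptor itself. On GRCm38 it lies on the minus strand at chr18:39410545-39519421. The HFD libraries held 66.3, 102, 85.1 and 103 CPM, and the CF libraries 46.5, 97.1, 94.8 and 86.9 CPM, in the order of replicates 1 to 4. The diets overlapped, and replicate 1 was the lowest library of each. The means were 89.1 ± 17.2 CPM in HFD and 81.3 ± 23.6 CPM in CF (SD, n = 4), and the log2 fold change was 0.13 (SE 0.24; edgeR adjusted p = 0.949; exact two-sided permutation test, p = 0.6). Without CF replicate 1 the fold change was -0.06, so its sign rested on that library. Counts of 1798 to 4224 per library stood behind these values.

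Per kb of exon, Nr3c1 was the most abundant of the 6 genes, with 11.6 ± 2.24 CPM per kb in HFD and 10.6 ± 3.08 CPM per kb in CF (SD, n = 4). This level stood at percentile 87.6 of the 11775 protein-coding genes tested. The next in order were Tsc22d3 (5.06 ± 3.26 in HFD and 5.89 ± 0.918 in CF) and Fkbp5 (5.01 ± 0.956 and 3.84 ± 0.141), whose ranges over the 8 libraries overlapped, at percentiles 71 and 64.4. Ddit4 (2.09 ± 0.411 and 2.24 ± 0.584) and Sgk1 (1.68 ± 1.14 and 2.71 ± 0.476) followed at percentiles 40.9 and 41.4 and overlapped as well. Klf9 was the lowest, with 0.394 ± 0.364 CPM per kb in HFD and 0.394 ± 0.112 CPM per kb in CF, at percentile 9.49. The receptor thus stood above its targets in the mean of each diet, although the highest Tsc22d3 library, at 9.89 CPM per kb, exceeded the lowest Nr3c1 library, at 6.05 CPM per kb.

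Fkbp5 encodes FKBP51, an HSP90 co-chaperone that lowers the receptor's affinity for its hormone and is itself induced by the receptor, which makes a feedback loop. It lies on the minus strand at chr17:28399094-28517527. In HFD it had 49.1, 42.9, 38.5 and 59.3 CPM, and in CF 35.8, 35.5, 38.3 and 35.7 CPM. Every HFD library was above every CF library, but HFD replicate 3 and CF replicate 3 were nearly level. The means were 47.4 ± 9.05 CPM and 36.3 ± 1.34 CPM (SD, n = 4), or 1.31-fold higher in HFD. The log2 fold change of 0.39 (SE 0.14) had an unadjusted p of 0.0205 and did not pass the adjustment (edgeR, adjusted p = 0.394). The exact two-sided permutation test gave p = 0.029, the smallest that 4 against 4 libraries allow.

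Fkbp5 was the only one of the 6 genes whose diets did not overlap. In the background, all HFD libraries lay above all CF libraries for 2.58% of genes and below them for 3.58%. With RLE size factors, with protein-coding genes alone and without HFD replicate 4 the Fkbp5 values of the diets overlapped. The direction was the same in 18 of 18 other settings, with log2 fold changes of 0.22 to 0.57 and adjusted p values of 0.218 to 0.999. The log2 fold change of Fkbp5 was 0.37 (SE 0.15) without HFD replicate 1. Markers of B cells and plasmacytoid DCs were higher in HFD too, as were 11 of 11 neutrophil and 5 of 5 erythroid markers. None of these markers passed the test. The B cell markers summed to 27.8 to 47.5 CPM in HFD and 18 to 26.8 CPM in CF, without overlap, and 5 of 6 were higher in HFD. The plasmacytoid DC markers summed to 169 to 391 CPM in HFD and 175 to 222 CPM in CF, and 5 of 5 were higher. The lowest of these sums, 169 CPM, was that of HFD replicate 1, where Fkbp5 had 49.1 CPM. The part of these cells in the Fkbp5 values was not tested.

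Tsc22d3 encodes GILZ, a leucine zipper protein through which glucocorticoids restrain inflammatory signalling and DC activation. It lies on the minus strand at chrX:140539528-140600659. The HFD libraries had 42.9, 15.3, 12.2 and 17.5 CPM, and the CF libraries 28.2, 27.9, 26.5 and 19.7 CPM. HFD replicate 1 was the highest of all, while the other 3 HFD libraries were below the lowest CF library. With all libraries the means were 22.0 ± 14.1 CPM and 25.6 ± 3.99 CPM (SD, n = 4), a log2 fold change of -0.22 (SE 0.37; edgeR adjusted p = 0.941; exact permutation p = 0.686). Without HFD replicate 1 the means were 15 ± 2.65 CPM (SD, n = 3) and 25.6 ± 3.98 CPM (SD, n = 4), the log2 fold change was -0.77 (SE 0.17), a ratio of 0.587, and the adjusted p was 0.0726 (edgeR). That value remained short of the threshold.

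Sgk1 encodes a serum- and glucocorticoid-induced kinase that acts on ion channels, FOXO factors and cell survival. It lies on the plus strand at chr10:21882184-21999903. The HFD libraries had 16.4, 7.27, 4.64 and 4.71 CPM, and the CF libraries 12.2, 15.5, 14.9 and 10.5 CPM. Again HFD replicate 1 was above every CF library and the other 3 HFD libraries were below every one. With all libraries the means were 8.25 ± 5.57 CPM and 13.3 ± 2.33 CPM (SD, n = 4), a log2 fold change of -0.69 (SE 0.40; edgeR adjusted p = 0.752; exact permutation p = 0.171).

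Without HFD replicate 1, Sgk1 had 5.54 ± 1.5 CPM in HFD (SD, n = 3) and 13.3 ± 2.33 CPM in CF (SD, n = 4), a ratio of 0.417. The log2 fold change was -1.26 (SE 0.22) and passed the test (edgeR adjusted p = 0.0342). The neutrophil sums of the HFD libraries left were 933.5 to 3549 CPM, against 1896 to 6426 CPM in CF. Their part in this call was not tested. Without that library 1.26% of all genes passed, so the call stands on a background with more calls. Without replicate 1 of both diets the log2 fold change was -1.30 (adjusted p = 0.030), in a fit where 2.45% of all genes passed. The sign was negative in 18 of 18 other settings, from -1.30 to -0.49, and the adjusted p ran from 0.030 to 0.999.

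In the libraries left without it, the diets did not overlap for 3 of the 6 genes, higher in HFD for Fkbp5 and lower for Tsc22d3 and Sgk1. In the background of that comparison, 6.40% of genes were apart and higher and 6.63% apart and lower. Without replicate 1 of both diets, where 3 libraries stood against 3, Klf9 was apart and lower as well, but 9.67% of all genes were then apart and higher and 11.7% apart and lower.

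**Figure D2:**
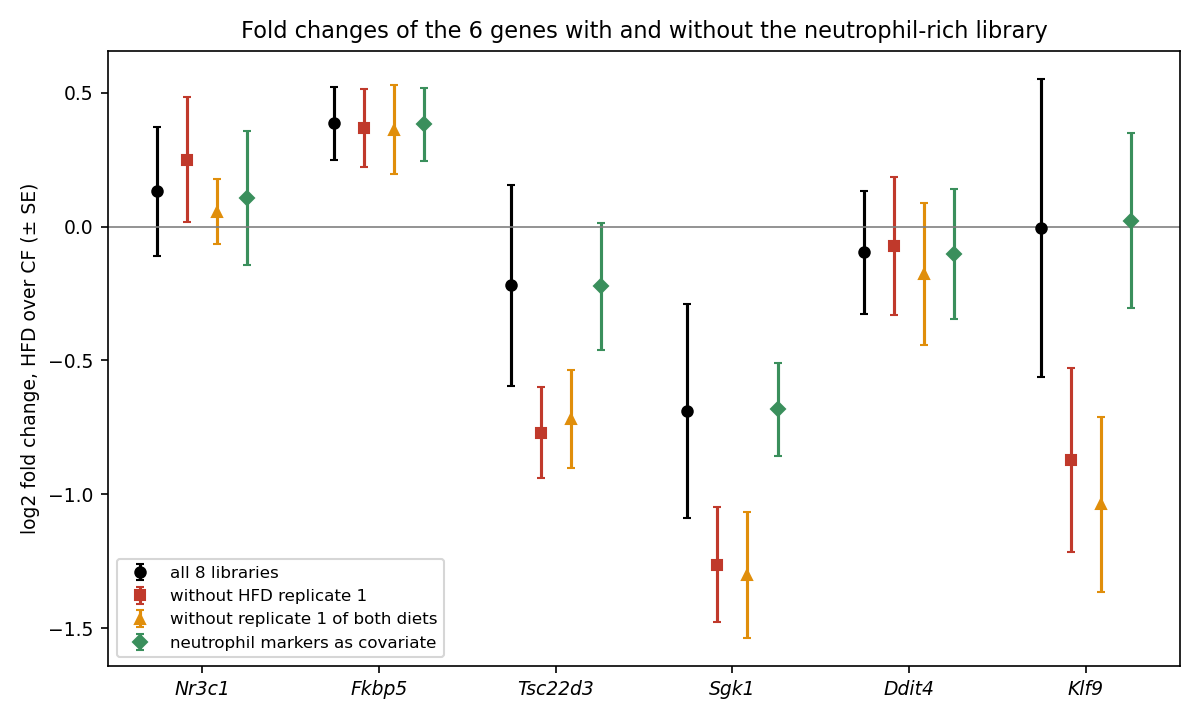
Log2 fold change of HFD over CF with its SE for the 6 genes (horizontal axis) in 4 fits: all 8 libraries (black), without HFD replicate 1 (red), without replicate 1 of both diets (orange) and with the neutrophil markers as a covariate (green). Fkbp5 stays between 0.36 and 0.39, while Tsc22d3, Sgk1 and Klf9 lie lower in the fits without HFD replicate 1 than in the fit with all libraries.

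The neutrophil sums moved with Tsc22d3 and Sgk1, since HFD replicate 1 was highest in all 3 measures and HFD replicates 3 and 4 were lowest in the neutrophil sum and in Sgk1. The order was not the same throughout. CF replicate 1, with a neutrophil sum of 1896 CPM, had the highest Tsc22d3 value of CF, 28.2 CPM, whereas HFD replicate 2, with a larger sum of 3549 CPM, had 15.3 CPM. The same pair of libraries had 12.2 and 7.27 CPM of Sgk1. These libraries also differ in diet, so diet and neutrophil content cannot be told apart in this pair. With the mean log2 CPM of the neutrophil markers as a covariate, the log2 fold change of Sgk1 was -0.68 (SE 0.17; edgeR adjusted p = 0.0639) and that of Tsc22d3 was -0.22 (SE 0.24; adjusted p = 0.756). The sums of granulocyte progenitor, erythroid, B cell, T and NK cell and mast cell markers were also highest in HFD replicate 1, and their part in these values was not tested.

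**Figure D3:**
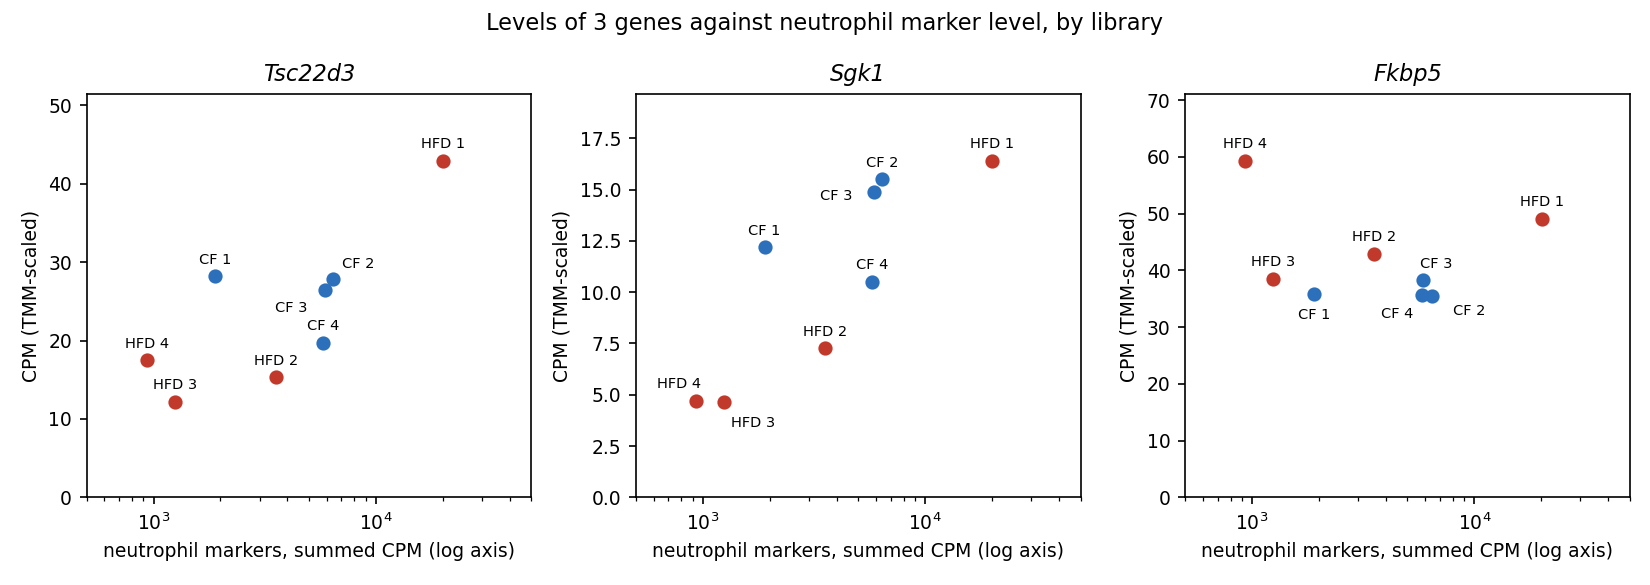
CPM of Tsc22d3, Sgk1 and Fkbp5 (vertical axes, from 0) against the summed CPM of 11 neutrophil markers (horizontal log axis) in each library, HFD in red and CF in blue. HFD replicate 1 lies at the right end with 42.9 CPM of Tsc22d3 and 16.4 CPM of Sgk1. CF replicate 1, with a lower neutrophil sum and another diet, lies above HFD replicate 2 for both of these genes.

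The sequences next to the start sites of these genes were read to show where the receptor's known element occurs. Only the 250 bases before each start site were searched, so elements farther away or within the genes were not looked for. Any link between these letters and the levels of the genes was not tested. A glucocorticoid response element is an inverted repeat of the letters AGAACA with 3 bases between its arms. RefSeq (GRCm38.p6) gave 12 windows of 250 bases before a start site for 5 of the genes, 6 of them for Sgk1. The full palindrome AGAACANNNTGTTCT, which reads the same on both strands, was found in 3 of 32817 such windows of the genome (0.00914%), and 1 of these belonged to Sgk1. The other windows with it belonged to Acnat2 and Gm35041, which were not among the genes tested. The single arm AGAACA, searched on both strands and counted also inside a palindrome, occurred in 16.1% of windows, and the looser form GNACANNNTGTNC in 0.387%. A match is a description of the letters in the window and not a measured binding site. The 2 windows shown are the Sgk1 one with the palindrome and the only one of Fkbp5. They are in lower case from 5′ to 3′ on the strand of the gene. Each AGAACA, or its reverse complement TGTTCT, is in capitals, as are the 3 bases between the arms of the palindrome.
Sgk1, chr10:21993640-21993889, plus strand: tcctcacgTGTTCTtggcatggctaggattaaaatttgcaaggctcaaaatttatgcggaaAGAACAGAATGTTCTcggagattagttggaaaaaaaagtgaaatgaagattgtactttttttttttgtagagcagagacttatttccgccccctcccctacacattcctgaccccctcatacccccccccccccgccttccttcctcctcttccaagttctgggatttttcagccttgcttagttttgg
Fkbp5, chr17:28486150-28486399, minus strand: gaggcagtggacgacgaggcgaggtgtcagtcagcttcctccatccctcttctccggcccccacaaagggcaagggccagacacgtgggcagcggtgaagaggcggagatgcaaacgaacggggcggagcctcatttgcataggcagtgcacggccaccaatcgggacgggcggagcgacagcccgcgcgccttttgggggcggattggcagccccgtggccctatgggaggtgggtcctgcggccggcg

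In the Sgk1 window the palindrome read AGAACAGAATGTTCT at chr10:21993701-21993715, from position -189 to -175 before the start site at 21993890. Its first base lies 965 bases before the next annotated start of Sgk1, at 21994666. A further single arm stood near the 5′ end of the same window. Of the other 5 Sgk1 windows, 2 held a single arm and 3 held none, and the Ddit4 and Klf9 windows held none. The Fkbp5 window held no such arm. Of the 3 Tsc22d3 windows, which are not printed, 1 held a single arm (chrX:140600523-140600772) and the other two held none. The count table gives 1 value per gene, and therefore does not show which start site was used.

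Ddit4 encodes REDD1, an inhibitor of mTORC1 that also responds to hypoxia and energy stress. It lies on the minus strand at chr10:59949669-59951834. The HFD libraries had 3.50, 3.30, 3.15 and 4.73 CPM, and the CF libraries 3.05, 3.34, 5.35 and 3.98 CPM. The diets overlapped almost wholly, and HFD replicate 1 was within the range of the others. The means were 3.67 ± 0.722 CPM and 3.93 ± 1.03 CPM (SD, n = 4), with a log2 fold change of -0.10 (SE 0.23; edgeR adjusted p = 0.963; exact permutation p = 0.657). Its sign turned when counts were scaled by library size alone and without CF replicate 3.

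Klf9 encodes a zinc finger transcription factor that the receptor induces in many tissues. It lies on the plus strand at chr19:23141226-23168134. The HFD libraries had 4.49, 0.975, 0.735 and 1.38 CPM, and the CF libraries 1.21, 2.51, 2.05 and 1.82 CPM. HFD replicate 1 was far above all others, and HFD replicates 2 and 3 were below every CF library. These were the thinnest data of the 6 genes, with 28 to 140 counts per library. The means were 1.90 ± 1.75 CPM and 1.90 ± 0.54 CPM (SD, n = 4), with a log2 fold change of -0.01 (SE 0.56; edgeR adjusted p = 0.999; exact permutation p = 1). Without HFD replicate 1 the log2 fold change was -0.87 (SE 0.34) and did not pass (adjusted p = 0.282), and the diets overlapped.

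The genes differed in how much they varied between libraries of 1 diet. The SD of log2 CPM within diets was 0.84 for Klf9, 0.63 for Sgk1 and 0.59 for Tsc22d3, at percentiles 91, 84.8 and 83 of protein-coding genes. Nr3c1 (0.41, percentile 71.2) and Ddit4 (0.31, percentile 57.9) varied less, and Fkbp5 the least (0.19, percentile 31). Within CF, the highest Fkbp5 library was 1.08-fold above the lowest, whereas within HFD it was 1.54-fold.

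Whether the 6 genes varied together was asked with log2 CPM centred within each diet, for 15 pairs over the 8 libraries. No pair passed (two-sided permutation test over all within-diet assignments, lowest adjusted p = 0.104). Tsc22d3 and Sgk1 had Pearson's r = 0.906 (permutation p = 0.0486, adjusted p = 0.243) and Spearman's rho = 0.762 (permutation p = 0.0556, adjusted p = 0.312). Without HFD replicates 1 and 3, the libraries farthest from the median of Tsc22d3, r was lower, at 0.483. Tsc22d3 and Klf9 had r = 0.885 and rho = 0.571 (permutation p = 0.0451 and p = 0.158, adjusted p = 0.243 and 0.592), and r = 0.287 without the same libraries. Fkbp5 and Ddit4 had the lowest p, with r = 0.687 and rho = 0.667 (permutation p = 0.00694 and p = 0.0625, adjusted p = 0.104 and 0.312), and r = 0.571 without HFD replicates 3 and 4. For Nr3c1 and Tsc22d3, r was -0.447 and rho -0.143 (permutation p = 0.215 and p = 0.747, adjusted p = 0.603 and 0.841), and r was 0.932 without replicate 1 of both diets. Each r with libraries left out used values centred on the diet means of all 8 libraries. An offset between the diets can therefore remain in it.

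The genes most like each member over the 8 libraries, by Pearson's r of log2 CPM among all genes tested, are given as a description. They were Pak4 (0.993) and Ceacam19 (0.981) for Nr3c1, and the pseudogene Gm12428 (0.962) and Rraga (0.962) for Fkbp5. Nlrp3 (0.981) and Pip4p2 (0.955) were most like Tsc22d3, and Sowahc (0.984) and Tnf (0.981) most like Sgk1. Gm3604 (0.938) and Mcm10 (0.932) were most like Ddit4, and Max (0.994) and Hcls1 (0.992) most like Klf9. These points share depth and scaling, and HFD replicate 1 weighs heavily in those for Tsc22d3, Sgk1 and Klf9.

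The other genes of the pathway were read from 6 lists, none of which held a called gene with all 8 libraries. Of all genes tested, 9447 were higher and 6390 lower in HFD. Of the 12 genes of the receptor's chaperone complex, 10 were higher and 2 lower in HFD, and the median of their log2 fold changes was 0.08 beside 0.05 over all genes tested. Dnajb1, an HSP40 co-chaperone that HSF1 induces on heat shock, was the 1 gene of this list at an unadjusted p under 0.05, beside 5.34% of all genes that were lower by that measure. It had 42.6, 31.2, 37.3 and 45.8 CPM in HFD and 95.3, 80.1, 74.2 and 50.8 CPM in CF. Every HFD library, the neutrophil-rich one included, was below every CF library, as for 3.58% of all genes. Its log2 fold change was -0.94 (SE 0.20; edgeR adjusted p = 0.0972), and -0.98 (adjusted p = 0.0761) without HFD replicate 1. Bag1, the co-chaperone next by p, had a log2 fold change of 0.22 (adjusted p = 0.692).

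The 16 coregulators that the receptor recruits to chromatin showed 7 higher and 9 lower in HFD, with a median of -0.01 on the log2 scale. Med1, a Mediator subunit, had a log2 fold change of -0.34 (SE 0.17; edgeR adjusted p = 0.686). Of 7 tested genes for steroid activation, export and related receptors, 4 were higher and 3 lower, with a median of 0.13. Pgr, the progesterone receptor, had 1.00 (SE 0.66; adjusted p = 0.798), and H6pd, which supplies NADPH to the enzyme that regenerates corticosterone, had 0.37 (SE 0.28; adjusted p = 0.827). The 8 tested relatives of Tsc22d3, Sgk1 and Klf9 had a median of 0.03, led by Klf13 at 0.25 (SE 0.16; adjusted p = 0.786) and Tsc22d2 at -0.11 (SE 0.12; adjusted p = 0.891).

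Of 35 tested genes that glucocorticoids are known to induce, apart from the 5 above, 16 were higher and 19 lower in HFD, their median was -0.06 on the log2 scale, and 2 were lower at an unadjusted p under 0.05, a share near the 5.34% of all genes. Errfi1, an inhibitor of EGF receptor signalling, had 0.629 to 1.33 CPM in HFD and 1.39 to 4.88 CPM in CF, and the log2 fold change was -1.70 (SE 0.48; edgeR adjusted p = 0.21). Bcl2l11, which encodes the pro-apoptotic protein BIM, had 10.6 ± 1.81 CPM and 15.3 ± 3.02 CPM (SD, n = 4), with a log2 fold change of -0.53 (SE 0.18; adjusted p = 0.348). Without HFD replicate 1, 25 of the 35 were lower and 10 higher, the median was -0.36 beside 0.03 over all genes, and 4 passed the test, all lower, where 1.26% of all genes passed. These were Rhob, a small GTPase (-1.35, SE 0.18; adjusted p = 0.0186), Rgs2, a regulator of G protein signalling (-1.06, SE 0.16; adjusted p = 0.0249), Zfp36, which promotes decay of cytokine mRNA (-1.76, SE 0.28; adjusted p = 0.0321), and Dusp1, a phosphatase of p38 and JNK (-2.17, SE 0.37; adjusted p = 0.0383).

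In these 4 genes HFD replicate 1 was again the highest library, with 70.7 CPM of Rhob, 110 CPM of Rgs2, 161 CPM of Zfp36 and 76.0 CPM of Dusp1. Rhob had 19.2 to 27.8 CPM in the other HFD libraries and 45.9 to 67.5 CPM in CF. Dusp1 had 6.92 to 13.6 CPM in the other HFD libraries and 25.4 to 69.0 CPM in CF. The neutrophil sums of those other HFD libraries were 933.5 to 3549 CPM, against 1896 to 6426 CPM in CF. Their part in these calls was not tested. Many genes of this list, Dusp1 and Zfp36 among them, are also immediate early genes that other stimuli induce rapidly.

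None of the tested genes that glucocorticoids are known to repress passed with all 8 libraries. Of these 9, 8 were lower and 1 was higher in HFD, their median was -1.03 on the log2 scale, and 3 were lower at an unadjusted p under 0.05, beside the same 5.34% of all genes. These were the chemokine genes Ccl4 (-1.09, SE 0.38; edgeR adjusted p = 0.373), Ccl3 (-1.02, SE 0.38; adjusted p = 0.430) and Ccl5 (-1.03, SE 0.41; adjusted p = 0.499). Their levels were low, and the diets overlapped for each. The means in HFD and CF were 0.746 and 1.6 CPM for Ccl4, 2.25 and 4.56 CPM for Ccl3, and 1.73 and 3.51 CPM for Ccl5. Without HFD replicate 1, 9 of 9 were lower, the median was -1.46 and 2 passed the test, beside 1.26% of all genes. The neutrophil sums of those 3 HFD libraries were 933.5 to 3549 CPM and their monocyte and macrophage sums 240.5 to 523.6 CPM, against 1896 to 6426 CPM and 427.1 to 601.5 CPM in CF. Genes of both the induced and the repressed list, Il1b and Mmp9 among the latter, are also expressed by myeloid cells, and the part of these cells in the counts of the lists was not tested. Tnf, an inflammatory cytokine, then had a log2 fold change of -1.25 (SE 0.24; adjusted p = 0.0477), with 14.6 CPM in HFD replicate 1, 3.11 to 5.38 CPM in the other HFD libraries and 7.65 to 11.5 CPM in CF. Ptgs2, the inducible cyclooxygenase, had -5.42 (SE 0.56; adjusted p = 0.015), with 8.34 CPM in HFD replicate 1, 0.243 to 0.378 CPM in the other HFD libraries and 5.76 to 22.0 CPM in CF. With each library left out in turn, genes of these lists passed the test only without HFD replicate 1, apart from Dnajb1 of the chaperone list, which passed without CF replicate 4.

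**Figure D4:**
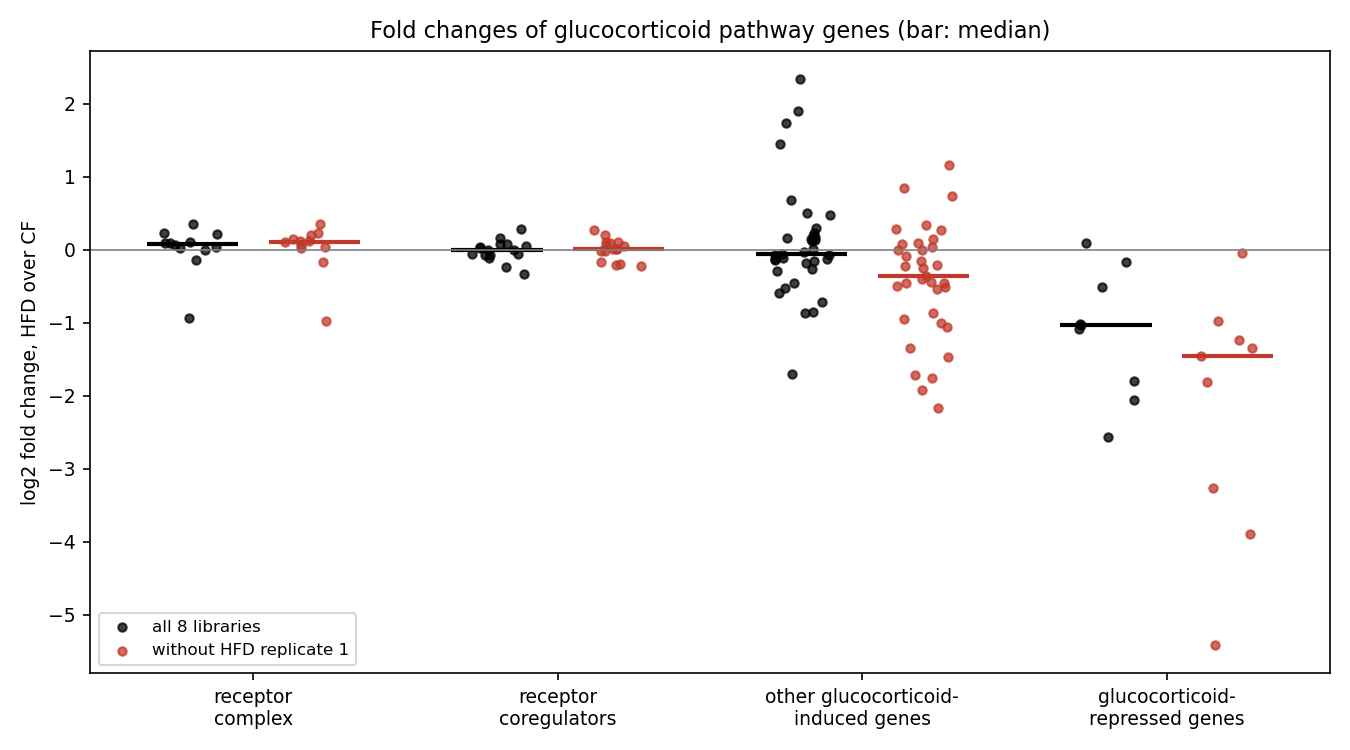
Log2 fold change of HFD over CF for each tested gene of 4 lists, with all 8 libraries (black) and without HFD replicate 1 (red), and the median of each list as a bar. Without that library the median of the other induced genes is -0.36 and that of the repressed genes is -1.46. The medians of the chaperone and coregulator lists are then 0.11 and 0.01, and Dnajb1 of the chaperone list is at -0.98.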

How the data were processed

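CDPs from BM of HFD and CF mice were sequenced in 8 libraries, 4 per diet. The deposited file held raw counts per gene that the authors made by trimming with cutadapt, aligning with HISAT2 to GRCm38 (build and tools per the labels' processing notes) and counting uniquely mapped pairs with StringTie on GENCODE genes. Versions, annotation release and strandedness are not given in the sources used here. The libraries were made with the NuGen Ovation Solo kit, which amplifies RNA from few cells, so counts are not counts of separate molecules. Columns were matched to replicates by the sample number in their labels. Of 16119 genes, 16067 matched GENCODE vM21, which gave names, coordinates and exon lengths; no exon of the 6 genes overlaps another gene's exon.

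Genes kept by filterByExpr were scaled by TMM and compared with edgeR 4.0.16 (R 4.3.3) by a robust quasi-likelihood fit with diet as the only term, two-sided, with Benjamini-Hochberg adjustment over all genes tested and a threshold of 0.05. The study compared the diets with Ballgown, and its FPKM were not analysed here. CPM are scaled by TMM, and a prior count of 2 was added before taking log2 CPM. Exact tests covered 70 assignments of libraries to diets. The script was tested on simulated data. Alternatives replaced TMM by library size alone or RLE size factors, edgeR by limma voom 3.58.1 or DESeq2 1.42.0 and the filter by no filter or 1 CPM in 4 libraries, or used protein-coding genes alone, a replicate block, a neutrophil covariate or fewer libraries.

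The 6 genes, the lists, which were written from general knowledge, and the alternatives were chosen with earlier results of these data known. The genes named are the 6, the 2 genes of each list with the lowest p and every gene called in it, the 2 most like each of the 6, and checks of the cells; for called genes this covers the fits with a library left out, which were read after the fit with all libraries. Ccl5, the third gene of its list under that p, Il1b, Mmp9, Acnat2 and Gm35041 were named after their values were seen. A further gene under the naming rule is not reported here. Nr3c2, Pdk4, Cdkn1c and Hif3a of the lists were not analysed here. Of the list of repressed genes 9 of 16 were tested, and of the relatives 8 of 10. Figures were drawn with matplotlib 3.10.9.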

Additional observations from a re-analysis of the deposited data

Results flagged for a closer look

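In 32 sets of 4 libraries of 1 diet, 4 had a library far from the others by Dixon's test at its 95% critical value, of which chance marks about 1 in 20. CF replicate 1 had 46.5 CPM of Nr3c1, where the other CF libraries had 86.9 to 97.1 CPM. CF replicate 3 had 38.3 CPM of Fkbp5, where the others had 35.5 to 35.8 CPM, a gap that is small in size because those 3 agree closely. CF replicate 4 had 19.7 CPM of Tsc22d3, where the others had 26.5 to 28.2 CPM. The neutrophil markers summed to 1900 CPM in CF replicate 1 and to 5800 to 6430 CPM in the other CF libraries. HFD replicate 1, although highest in Tsc22d3, Sgk1 and Klf9, did not pass this test for the 6 genes.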

How the results depend on the processing

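The number of the 6 genes called was 0 in 16 of 18 settings and 1 (Sgk1) without HFD replicate 1 and without replicate 1 of both diets. Leaving out 1 library gave 0 to 1 called and 0 to 3 with diets apart. The number with diets apart, 1 with all libraries, was 0 with RLE size factors and with protein-coding genes alone and 4 without replicate 1 of both diets, a fit in which 9.67% of all genes were apart and higher and 11.7% apart and lower and where the log2 fold change of Sgk1 was -1.30. With library size alone, which moved the median of all genes to 0.25 from 0.05, that of Ddit4 was 0.082 and that of Klf9 0.14, and with the neutrophil covariate that of Klf9 was 0.022. Over the libraries left out in turn, Nr3c1 ran from -0.061 to 0.25, Fkbp5 from 0.22 to 0.47, Tsc22d3 from -0.77 to -0.02, Sgk1 from -1.26 to -0.49, Ddit4 from -0.29 to 0.088 and Klf9 from -0.87 to 0.26. Replicate numbers did not pair the libraries, as same-numbered deviations correlated at -0.439 to -0.0779. With a replicate block Nr3c1 had 0.17, Fkbp5 0.37, Tsc22d3 -0.39, Sgk1 -0.89, Ddit4 -0.08 and Klf9 -0.38, and 0 genes were called among all tested. Genes called among all tested numbered 67 with all libraries, 569 with DESeq2 and 646 with the covariate, but 0 with protein-coding genes alone. They numbered 388 without replicate 1 of both diets, 200 without HFD replicate 1, 154 without CF replicate 4 and 0 to 2 without any 1 of the other 6 libraries. Without centring, 2 of 15 pairs passed instead of 0, and r turned for Fkbp5 with Tsc22d3 (-0.0162) and with Sgk1 (-0.414), and for Ddit4 with Tsc22d3 (0.0529) and with Sgk1 (0.0198). With library size alone the list medians were 0.28 for the chaperones, 0.20 for the coregulators, 0.34 for steroid supply, 0.23 for the relatives and 0.13 for the induced genes. Without HFD replicate 4 they were -0.10 for the chaperones and -0.04 for the relatives. The induced median was also above 0 without HFD replicate 2 (0.09) and without CF replicate 3 (0.06), and that of steroid supply was 0.02 without HFD replicate 1. The cause of these moves was not tested. Depth limits Klf9 most.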
